A study of Mus musculus with 3 samples.

Results

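Genes that fat cells use to store lipid and to signal to other organs were read from RNA sequencing libraries of mouse mandibular condyles. The 10 genes are 4 that encode secreted proteins (Adipoq, Lep, Retn and Cfd), 3 that encode lipid droplet proteins (Plin1, Plin4 and Cidec), Lpl and Fabp4 for uptake and carriage of fatty acids, and the nuclear receptor gene Pparg. They were selected on their symbols out of 26970 genes in the deposited table, and the list was drawn up with the values of these same libraries already known, so every difference given for them is a description. The study asked how loss of 1 or both copies of Dspp, which encodes a matrix protein of dentin, bone and cartilage, affects the condyle. There were 3 libraries, 1 per genotype: WT (+/+), Dspp+/- and Dspp-/-, the mutants carrying a global knockout on a C57BL/6 background. Cartilage and the bone beneath it were dissected as 1 piece. All mice were 4 months old. The methods give a pool of 3 animals for WT and for Dspp+/-, and the number behind the Dspp-/- library is not given in the sources used here. A genotype is a single library without replicates, which allows no test between genotypes, so each difference below is one between single libraries, and the intervals cover counting error only.

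White fat cells hold triglyceride in a single large droplet. Perilipin 1 coats that droplet and controls access of lipases to it, CIDEC drives fusion of small droplets into the large one, and perilipin 4 coats small droplets. Lipoprotein lipase, the product of Lpl, frees fatty acids from circulating lipoproteins, and FABP4 carries them inside the cell. PPARG is the transcription factor that drives fat cell differentiation and switches on most of these genes. Adiponectin, leptin, resistin and adipsin (complement factor D, from Cfd) are proteins that fat cells secrete. Fat cells lie in the bone marrow and in the soft tissue around a joint. Several of these genes are not confined to fat cells. Lpl and Plin4 are active in skeletal muscle, Fabp4 in capillary endothelium and macrophages, Pparg in macrophages, and Adipoq and Lpl in adipogenic stromal cells of marrow that hold no large droplet.

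The values are FPKM, fragments scaled to gene length and library depth, and the fragments behind them were recovered from the steps in the values. The depth, fitted to those steps, was 20241581 (WT), 23613622 (Dspp+/-) and 22253161 (Dspp-/-) fragments, and 3 values given in a row for a gene follow that order. The libraries differed in more than genotype. Xist, the RNA of the inactive X chromosome in females, had 2 fragments in WT and 28.5 FPKM in Dspp+/- and 26.5 FPKM in Dspp-/-, while the Y-linked gene Ddx3y had 22.5, 11.1 and 15.1 FPKM. The other Y-linked genes, Eif2s3y, Kdm5d and Uty, were also highest in WT and lowest in Dspp+/-. Sex of the animals and genotype therefore cannot be told apart here. The labels could not be checked against Dspp, which was not analysed here.

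Of the 10 genes, 8 were found among the RefSeq promoter windows of GRCm38.p6, with 11 windows between them. Cfd, Retn, Plin1 and Cidec are shown because these 4 genes were lower than WT in Dspp+/- and higher than WT in Dspp-/-. The 250 bases before each RefSeq start are given from 5′ to 3′, and Cidec has 2 starts. Capitals mark the letters TTGCNNAA on either strand, a pattern bound by C/EBP factors, which act with PPARG in fat cells.
Cfd, chr10:79890603-79890852, plus strand: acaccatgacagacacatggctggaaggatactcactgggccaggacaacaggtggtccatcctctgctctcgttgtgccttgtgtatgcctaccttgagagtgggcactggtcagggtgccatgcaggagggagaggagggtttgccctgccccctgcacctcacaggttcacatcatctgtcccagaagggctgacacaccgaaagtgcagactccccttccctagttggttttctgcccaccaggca
Retn, chr8:3655520-3655769, plus strand: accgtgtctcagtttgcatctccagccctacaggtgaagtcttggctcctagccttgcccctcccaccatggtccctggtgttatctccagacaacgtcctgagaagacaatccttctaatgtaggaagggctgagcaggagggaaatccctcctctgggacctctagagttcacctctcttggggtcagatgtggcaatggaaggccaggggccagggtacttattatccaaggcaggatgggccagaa
Plin1, chr7:79732777-79733026, minus strand: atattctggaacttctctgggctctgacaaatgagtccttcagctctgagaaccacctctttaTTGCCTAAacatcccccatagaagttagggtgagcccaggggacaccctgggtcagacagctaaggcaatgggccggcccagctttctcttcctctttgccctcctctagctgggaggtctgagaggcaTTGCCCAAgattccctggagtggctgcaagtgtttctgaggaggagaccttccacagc
Cidec, chr6:113435761-113436010, minus strand: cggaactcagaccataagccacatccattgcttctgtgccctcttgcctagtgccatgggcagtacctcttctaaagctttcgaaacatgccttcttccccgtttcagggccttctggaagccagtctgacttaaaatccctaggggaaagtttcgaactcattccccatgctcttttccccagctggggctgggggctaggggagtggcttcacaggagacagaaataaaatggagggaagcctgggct
Cidec, chr6:113434765-113435014, minus strand: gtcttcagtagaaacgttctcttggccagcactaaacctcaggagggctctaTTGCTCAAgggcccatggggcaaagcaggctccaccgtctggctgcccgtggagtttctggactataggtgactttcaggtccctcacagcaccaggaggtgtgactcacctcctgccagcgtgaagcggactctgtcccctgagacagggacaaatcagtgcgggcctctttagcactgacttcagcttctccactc

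Plin1 held 2 such matches, the second window of Cidec held 1, and the windows of Cfd and Retn held 0. Among the genes not shown, Lep held 1 match and the third window of Pparg held 2, while Adipoq and Plin4 held 0. Among all 32851 windows in the table, 9.56% held at least 1 match to TTGCNNAA. The full repeat, 2 copies of AGGTCA with 1 base between them, to which PPARG binds together with RXR, was not found in a window of these 8 genes, and 0.0335% of all windows held it. A single AGGTCA occurred in 14.0% of all windows and, among the 8 genes, in 2 of the 3 windows of Pparg. These are matches of letters on either strand in a short window and not binding sites.

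Among the secreted proteins, Cfd was the most abundant and differed most between libraries. Cfd, at chromosome 10, bases 79726687 to 79728489 in the positions of the authors' table, whose build is not named, had FPKM of 23.5 (WT), 8.50 (Dspp+/-) and 62.0 (Dspp-/-), from 439, 185 and 1273 fragments. It was therefore lowest in Dspp+/- and highest in Dspp-/-, with neighbours in that order separated by more than counting error. The Dspp+/- level was 0.361 of WT (95% interval 0.303 to 0.430), the Dspp-/- level was 2.64 times WT (2.36 to 2.95), and the Dspp-/- library had 7.30 times the level of Dspp+/- (6.25 to 8.57). Retn, the resistin gene at chromosome 8, bases 3705770 to 3710110, had the same order at a lower level, with FPKM of 1.47 (WT), 0.590 (Dspp+/-) and 3.50 (Dspp-/-). These levels rest on 47, 22 and 123 fragments, and the Dspp+/- and Dspp-/- ratios to WT were 0.401 (0.230 to 0.679) and 2.38 (1.69 to 3.41).

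Adipoq, the adiponectin gene at chromosome 16, bases 22965286 to 22976778, did not share the low level in Dspp+/-. It had FPKM of 5.80 (WT), 6.47 (Dspp+/-) and 13.1 (Dspp-/-), from 162, 211 and 404 fragments. WT and Dspp+/- did not differ beyond counting error, with a ratio of 1.12 (0.905 to 1.38), whereas Dspp-/- had 2.27 times the WT level (1.89 to 2.74) and 2.03 times that of Dspp+/- (1.72 to 2.41). Lep, the leptin gene at chromosome 6, bases 29060219 to 29073876, was low in all libraries. It had FPKM of 0.206 (WT), 0.328 (Dspp+/-) and 0.335 (Dspp-/-), from 14, 26 and 25 fragments. A difference in Lep was not detectable at this depth, since the Dspp+/- and Dspp-/- ratios to WT were 1.59 (0.801 to 3.30) and 1.62 (0.812 to 3.38).

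**Figure D1:**
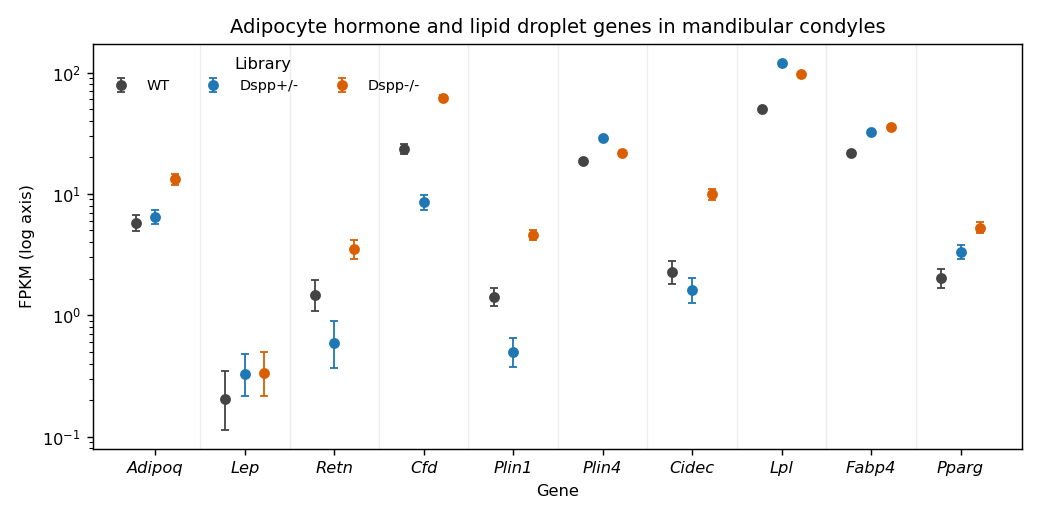
FPKM on a log axis of the 10 genes in the WT, Dspp+/- and Dspp-/- libraries, 1 point per library, with bars for the 95% Poisson interval of the recovered fragments. Retn, Cfd, Plin1 and Cidec are lowest in Dspp+/- and highest in Dspp-/-, while Plin4 and Lpl are highest in Dspp+/-, and Lep is the least abundant, between 0.206 and 0.335 FPKM.

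The droplet protein genes of the large fat cell droplet, Plin1 and Cidec, followed Cfd. Plin1, at chromosome 7, bases 79369966 to 79382651, had FPKM of 1.41 (WT), 0.501 (Dspp+/-) and 4.61 (Dspp-/-), from 133, 55 and 477 fragments. Its Dspp-/- level was 9.20 times that of Dspp+/- (6.95 to 12.4), which was the largest ratio among the 10 genes. Against WT, Plin1 was at 0.354 (0.254 to 0.489) in Dspp+/- and at 3.26 (2.69 to 3.98) in Dspp-/-. Cidec, at chromosome 6, bases 113401595 to 113412721, had FPKM of 2.26 (WT), 1.62 (Dspp+/-) and 9.90 (Dspp-/-), from 85, 71 and 409 fragments. It had the largest ratio of Dspp-/- to WT, 4.38 (3.46 to 5.60), and only a small deficit in Dspp+/-, with a ratio of 0.716 whose interval (0.515 to 0.993) ends just under 1.

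Plin4, unlike Plin1 and Cidec, was highest in Dspp+/-. Plin4, at chromosome 17, bases 56407591 to 56416803, had FPKM of 18.6 (WT), 29.0 (Dspp+/-) and 21.6 (Dspp-/-). Relative to WT it stood at 1.55 (1.47 to 1.64) in Dspp+/- and at 1.16 (1.10 to 1.23) in Dspp-/-. Its FPKM did not give whole fragments with the GENCODE M21 exon length, so its fragments and intervals are approximate. In the same annotation 17 bases of its exons overlap an exon of Hdgfl2 on the opposite strand, whose reads could not be told apart if strand was not used in counting, and the other 9 genes overlap no exon of another gene.

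Lpl was the most abundant of the 10 genes in every library. Lpl, at chromosome 8, bases 69333143 to 69360100, had FPKM of 49.98 (WT), 119.8 (Dspp+/-) and 96.5 (Dspp-/-), from 10601, 29637 and 22493 fragments. Of the summed FPKM of the 10 genes, 127.1 (WT), 202.4 (Dspp+/-) and 252.8 (Dspp-/-), Lpl made up 39.3%, 59.2% and 38.2%, and Cfd 18.5%, 4.20% and 24.6%. Lpl was higher than WT in both mutant libraries, with ratios of 2.40 (2.34 to 2.45) in Dspp+/- and 1.93 (1.89 to 1.98) in Dspp-/-. Fabp4, at chromosome 3, bases 10269148 to 10273636, had FPKM of 21.8 (WT), 32.3 (Dspp+/-) and 35.9 (Dspp-/-), with ratios to WT of 1.48 (1.40 to 1.57) and 1.65 (1.56 to 1.74). Pparg, at chromosome 6, bases 115337912 to 115467360, had FPKM of 2.02 (WT), 3.31 (Dspp+/-) and 5.28 (Dspp-/-), from 121, 231 and 347 fragments. Fabp4 and Pparg had the same order, WT lowest and Dspp-/- highest, and Pparg stood at 1.64 times WT (1.31 to 2.06) in Dspp+/- and at 2.61 times WT (2.12 to 3.24) in Dspp-/-.

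**Figure D2:**
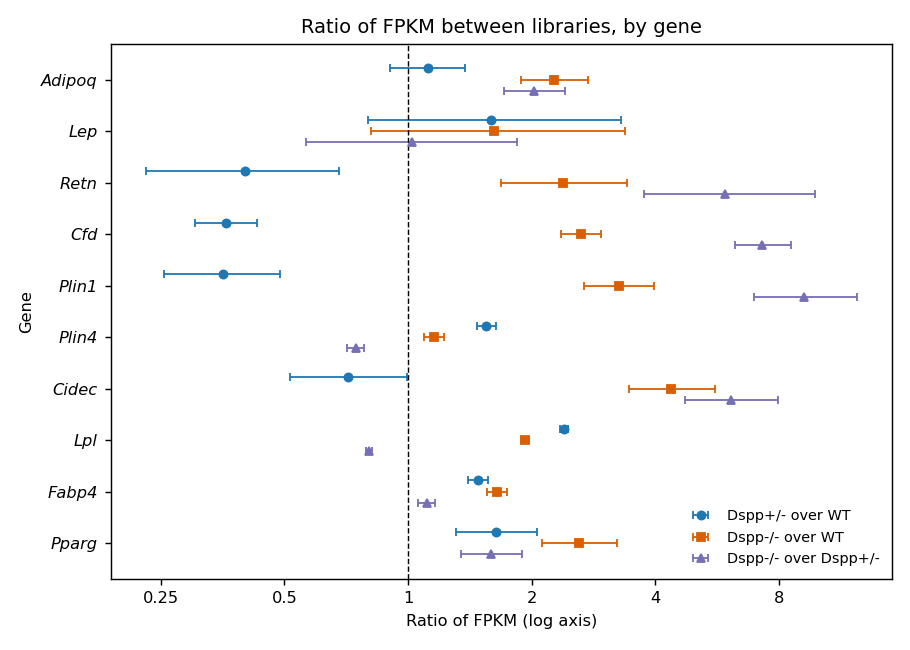
Ratio of FPKM between libraries on a log axis for each of the 10 genes, with 95% Clopper-Pearson intervals from the recovered fragments as bars and a dashed line at 1. In Dspp-/- over WT every ratio lies above 1, from 1.16 for Plin4 to 4.38 for Cidec, whereas in Dspp+/- over WT the genes Retn, Cfd, Plin1 and Cidec lie below 1 and the other genes above it.

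Counted over the list, the Dspp-/- library stood above WT for 10 of 10 genes, and the counting interval excluded 1 for 9 of them, with Lep the exception. For Dspp+/-, 6 genes were above WT and 4 below, and the interval excluded 1 for 4 of the 6 and for all 4, respectively. Of all 13026 genes averaging 1 FPKM or more, 50.7% were above WT in Dspp-/- and 56.3% in Dspp+/-. The share of all genes whose interval excludes 1 was not computed, so nothing is read from these interval counts. Genes with many fragments pass at small ratios, as Plin4 did at 1.16 (1.10 to 1.23) in Dspp-/-. The further counts use log2 ratios of FPKM + 1 and genes averaging 1 FPKM or more over the 3 libraries, which 9 of the 10 genes reached. Lep did not, and Plin1 reached it through the Dspp-/- library alone, as its mean over the others was 0.957 FPKM. In Dspp-/- against WT, 5 of 9 genes (Adipoq, Cfd, Plin1, Cidec and Pparg) were at least 2-fold higher and 0 at least 2-fold lower, where 4.05% of the 13026 genes compared were higher and 1.37% lower. Their median log2 ratio was 1.05 and that of all genes compared was 0.0070. In Dspp+/- against WT, 1 gene (Lpl) was at least 2-fold higher and 1 (Cfd) at least 2-fold lower, where 4.88% of all genes were higher and 2.86% lower. By the ratio of FPKM without a pseudocount, an alternative added after seeing the data, 3 genes (Retn, Cfd and Plin1) were at least 2-fold lower, where 4.94% of all genes were. On FPKM + 1 the median of the 9 genes was 0.14 against 0.058 for all genes, and it turned to -0.48 without Lpl, Fabp4 and Pparg, the genes that endothelial cells or macrophages also express. Between the mutant libraries, without WT, 4 genes (Retn, Cfd, Plin1 and Cidec) were at least 2-fold higher in Dspp-/- and 0 lower, where 0.852% of all genes were higher and 0.798% lower. The genes were picked with these values known, so nothing is read from these shares. Both comparisons with WT use the same WT library, and in a bulk sample fewer fat cells and less RNA per fat cell cannot be told apart.

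The levels of the genes relative to each other show which of them moved together. Within a library, Cfd had 16.6 times the FPKM of Plin1 in WT (13.7 to 20.4), 17.0 times in Dspp+/- (12.5 to 23.4) and 13.5 times in Dspp-/- (12.1 to 15.0). The intervals overlap, although the level of Plin1 itself ranged from 0.501 to 4.61 FPKM. Overlap alone does not show that a ratio is constant. The ratio of Retn to Plin1 was 1.04, 1.18 and 0.759 in the same order, also with overlapping intervals. Cidec to Plin1 was 1.60 in WT (1.20 to 2.12), 3.23 in Dspp+/- (2.24 to 4.69) and 2.15 in Dspp-/- (1.88 to 2.46), so Dspp+/- lay above WT.

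Adipoq and the remaining genes varied more relative to Plin1 than Cfd and Retn did. Adipoq had 4.10 times the FPKM of Plin1 in WT (3.24 to 5.20), 12.9 times in Dspp+/- (9.56 to 17.7) and 2.85 times in Dspp-/- (2.49 to 3.26). Lpl had 35.4 times the FPKM of Plin1 in WT, 239 times in Dspp+/- and 20.9 times in Dspp-/-. The Dspp+/- library thus held far more Lpl and more Adipoq for each unit of Plin1 than the other libraries. The ratio of Pparg to Adipoq varied less than that of Adipoq to Plin1. It was 0.349 in WT (0.274 to 0.445), 0.512 in Dspp+/- (0.423 to 0.620) and 0.402 in Dspp-/- (0.347 to 0.465). The value was highest in Dspp+/-, but its interval overlaps both others. Cfd to Adipoq was alike in WT, 4.06 (3.38 to 4.89), and Dspp-/-, 4.72 (4.22 to 5.29), and lower in Dspp+/-, 1.31 (1.07 to 1.61). These ratios were compared after the levels had been seen.

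**Figure D3:**
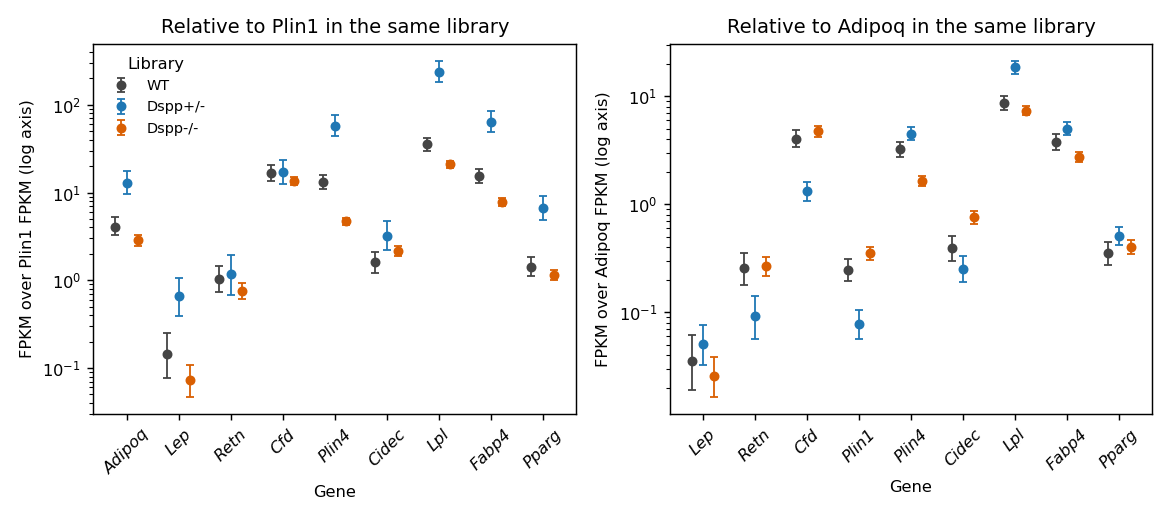
FPKM of each gene divided by that of Plin1 (left) or Adipoq (right) in the same library, on log axes, with 95% Clopper-Pearson intervals from fragments as bars. Relative to Plin1, Cfd and Retn have overlapping intervals in the 3 libraries while Adipoq, Lpl, Plin4, Fabp4 and Pparg are highest in Dspp+/-.

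Other genes of fat cell biology were read from lists that hold none of the 10 genes. Of the 13026 genes compared, 4.05% were at least 2-fold higher and 1.37% lower in Dspp-/- than in WT. In Dspp+/- these shares were 4.88% and 2.86%, and they stand beside each list below. By the ratio of FPKM itself, 1021 genes were higher and 643 lower in Dspp+/-, and 887 and 399 in Dspp-/-. In the list for triglyceride synthesis and lipogenesis, 16 of 16 genes averaged 1 FPKM or more, and 4 of them were at least 2-fold higher in Dspp-/- than in WT, with 0 lower. Its median log2 ratio was 0.60 in Dspp-/- and 0.043 in Dspp+/-. Scd1, a desaturase that makes monounsaturated fatty acids, had FPKM of 32.1 (WT), 19.7 (Dspp+/-) and 84.5 (Dspp-/-). Fasn, the fatty acid synthase gene, had 8.69, 5.30 and 18.4 FPKM, and so had the order of Cfd and Plin1. Pck1, which makes glycerol precursors for triglyceride in fat cells, had 0.864, 0.692 and 6.12 FPKM, and the elongase gene Elovl6 had 1.34, 1.46 and 3.82 FPKM. Thrsp, a regulator of lipogenesis, had 7.04, 6.25 and 14.4 FPKM. Its level in Dspp-/- was 2-fold or more above that in Dspp+/-, as were the levels of Fasn, Scd1 and Pck1, and by the ratio of FPKM itself Thrsp also passed 2-fold against WT, at 2.04 (1.78 to 2.34). Slc2a4, the insulin-dependent glucose transporter gene of fat and muscle, had the highest mean of the list, though less than Scd1 in Dspp-/-, with 54.1, 88.4 and 56.3 FPKM.

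Of the brown fat genes, 7 of 8 averaged 1 FPKM or more, and Ucp1 and Cidea were at least 2-fold higher in Dspp-/- than in WT and than in Dspp+/-. Of all genes compared, 4.05% were higher than in WT and 0.852% higher than in Dspp+/-. Ucp1, the uncoupling protein of brown fat, had FPKM of 0.423 (WT), 0.104 (Dspp+/-) and 4.92 (Dspp-/-), from 14, 4 and 179 fragments. Cidea, a relative of Cidec on droplets of brown fat cells, had 0.798, 0.532 and 3.39 FPKM. Both genes, and Pck1, reached the mean through the Dspp-/- library alone. Ucp1 was lowest in Dspp+/-, whereas Cidea did not differ beyond counting error between Dspp+/- and WT, with 14 and 18 fragments and a ratio of 0.667 (0.307 to 1.42). Cox8b and Cox7a1, the most abundant of the list, are respiratory chain genes that muscle also uses. Cox8b had 156.7, 195.4 and 213.0 FPKM and Cox7a1 had 76.5, 86.8 and 66.8 FPKM.

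**Figure D4:**
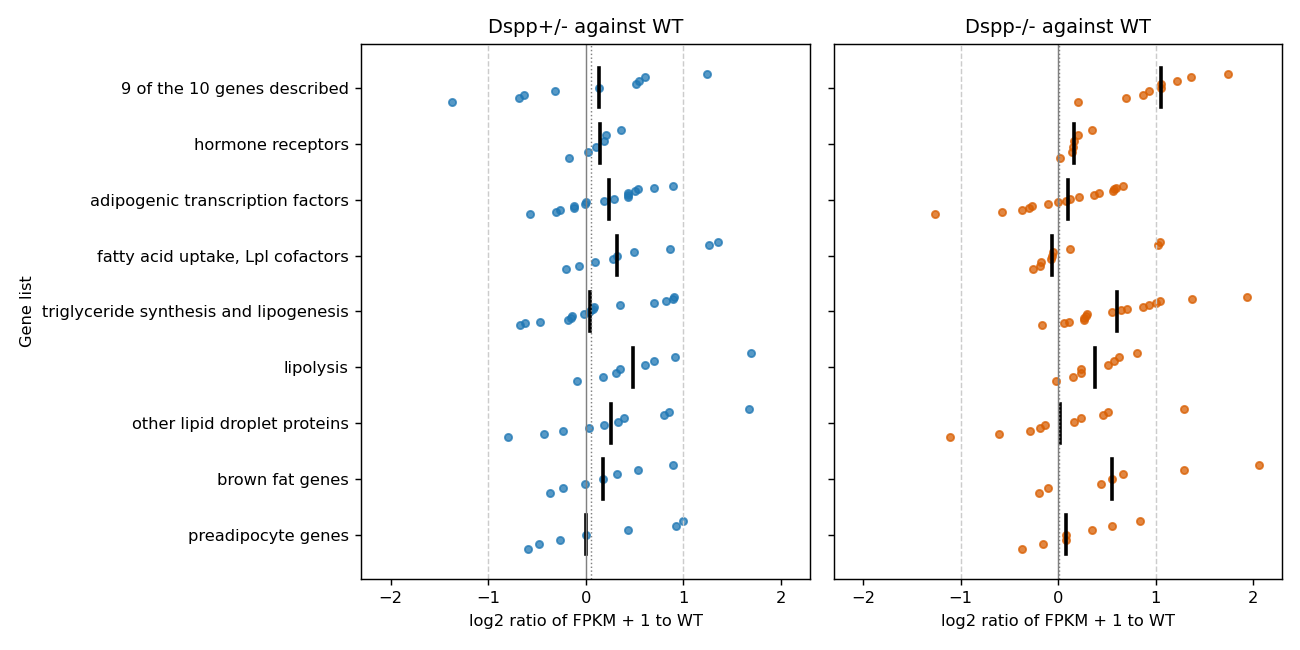
log2 ratio of FPKM + 1 to WT in Dspp+/- (left) and Dspp-/- (right), 1 point per gene averaging 1 FPKM or more, by gene list. Black bars are list medians, the dotted line is the median of all genes compared and dashed lines mark 2-fold. The 9 plotted genes of the 10 described have a median of 1.05 in Dspp-/- and spread from -1.37 to 1.24 in Dspp+/-.

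Genes for fatty acid uptake and lipolysis that passed 2-fold against WT on FPKM + 1 were highest in Dspp+/-, as Lpl and Plin4 were. In the uptake list, 9 of 10 genes reached a mean of 1 FPKM, and 2 of them, Cd36 and Acsl1, were at least 2-fold higher than WT in Dspp+/- and also in Dspp-/-. Of all genes compared, 4.88% were in Dspp+/- and 4.05% in Dspp-/-. Cd36, a fatty acid transporter gene of fat, muscle, endothelium and macrophages, had FPKM of 84.1 (WT), 216.6 (Dspp+/-) and 175.2 (Dspp-/-), while Acsl1, which activates fatty acids, had 12.6, 31.5 and 26.6 FPKM. In the lipolysis list, 1 gene of 8, G0s2, passed 2-fold upwards in Dspp+/-, and 0 passed it in Dspp-/-. By the ratio of FPKM itself 2 more genes passed 2-fold, Angptl4, an inhibitor of lipoprotein lipase, at 2.01 (1.75 to 2.31) in Dspp+/-, and Pde3b, through which insulin restrains lipolysis, at 2.32 (1.997 to 2.69) in Dspp-/-. G0s2, an inhibitor of the lipase encoded by Pnpla2, had 11.9, 40.7 and 14.1 FPKM, and Pnpla2 had 48.4, 92.5 and 72.5 FPKM. Among 10 further droplet protein genes averaging 1 FPKM or more, Plin5, the perilipin of oxidative muscle, passed 2-fold upwards in Dspp+/-, with 5.26, 19.0 and 6.37 FPKM. Of the other genes of that list, Cidea was at least 2-fold higher in Dspp-/-, as given above, and Hilpda, an inhibitor of lipolysis, at least 2-fold lower, with 7.30, 3.76 and 2.85 FPKM. Cav1 and Cavin1, the highest of the list by mean and coat proteins of caveolae, had 88.4, 116.6 and 122.2 FPKM and 91.3, 93.8 and 74.6 FPKM.

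Among genes that act before the fat cell is mature, the count past 2-fold depended on the pseudocount. Of 16 adipogenic transcription factor genes, 0 were at least 2-fold higher in a mutant library on FPKM + 1, and 1, Cebpd, was lower in Dspp-/-, with FPKM of 29.8 (WT), 19.7 (Dspp+/-) and 11.8 (Dspp-/-). Cebpb, an early factor upstream of Pparg and the most abundant of the list, had 63.4, 85.9 and 51.5 FPKM, and Rxra, the partner of PPARG, had 28.2, 22.7 and 18.6 FPKM. By the ratio of FPKM itself Ppargc1a, a coactivator of PPARG, was at 2.19 (1.93 to 2.48) in Dspp+/- and at 1.81 (1.59 to 2.07) in Dspp-/-. In the preadipocyte list 0 of 7 genes passed 2-fold on FPKM + 1, but by the ratio of FPKM 2 did in Dspp+/- and 1 in Dspp-/-. Of the 13026 genes compared, 1021 and 887 were at least 2-fold higher by that ratio. Dpp4, a surface marker of fat progenitors, was at 2.83 (2.31 to 3.48) in Dspp+/- and 2.61 (2.12 to 3.22) in Dspp-/-, and Pi16, a marker of the same cells, at 2.41 (2.12 to 2.76) and 1.67 (1.45 to 1.92). The most abundant genes of the list, Ly6a and Pdgfrb, had 49.2, 66.8 and 63.1 FPKM and 41.3, 29.3 and 31.7 FPKM. Of the hormone receptor genes, 6 of 8 reached a mean of 1 FPKM and 0 passed 2-fold in any comparison. Adipor1, an adiponectin receptor gene, had 40.8, 47.4 and 45.1 FPKM, and Cap1, which encodes a protein reported to bind resistin, had 50.8, 54.7 and 57.2 FPKM. The median log2 ratios in Dspp+/- and Dspp-/- were 0.24 and 0.10 for transcription factors, 0.00087 and 0.083 for preadipocyte genes, and 0.15 and 0.16 for hormone receptors. They were 0.32 and -0.07 for uptake, 0.48 and 0.38 for lipolysis, 0.26 and 0.015 for droplet proteins, and 0.18 and 0.55 for brown fat genes.

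**Figure D5:**
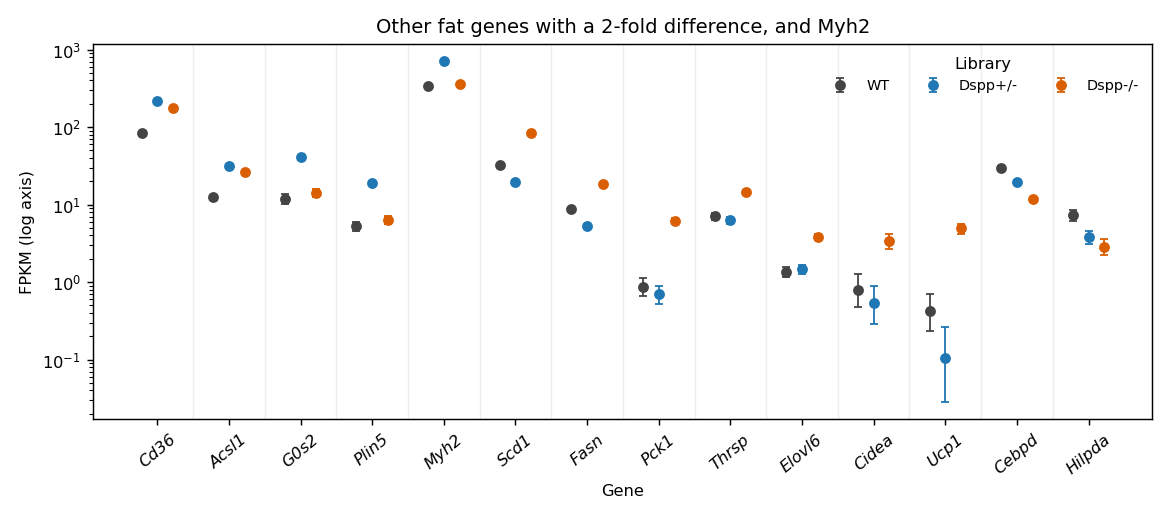
FPKM on a log axis of the fat genes outside the 10 that differed at least 2-fold on FPKM + 1 in a comparison, with the muscle myosin gene Myh2, 1 point per library and 95% Poisson intervals as bars. Cd36, Acsl1, G0s2, Plin5 and Myh2 are highest in Dspp+/-, and Scd1, Fasn, Pck1, Thrsp, Elovl6, Cidea and Ucp1 are highest in Dspp-/-, where Cebpd and Hilpda are lowest.

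The genes nearest to Adipoq in their pair of log2 ratios to WT, among 7132 genes averaging 5 FPKM or more and over the 3 libraries, were Retnla, Otud1, Thrsp, Gm14539 and Gm23458. Retnla, a resistin-like gene, was nearest, at a distance of 0.155 log2 units, with FPKM of 3.71 (WT), 4.60 (Dspp+/-) and 8.10 (Dspp-/-). Otud1, a deubiquitinase gene, had 11.2, 12.2 and 21.6 FPKM. Thrsp is the lipogenic gene described above, and the remaining genes are predicted genes with 20.2, 22.1 and 34.3 FPKM (Gm14539) and 3.51, 4.76 and 6.91 FPKM (Gm23458).

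Markers of other cell types were summed in the same libraries. Skeletal muscle genes were abundant in each of them, with sums of 11677, 15188 and 12620 FPKM over 12 genes, and with Acta1, its actin, at 5609, 8162 and 7150 FPKM. Of these genes, Myh4, Actn3 and Car3 were at least 2-fold lower in Dspp+/- than in WT and Myh2 at least 2-fold higher, and 0 passed 2-fold in Dspp-/-. Myh2, the myosin of oxidative fast fibres, had 341.8, 706.0 and 359.2 FPKM, so like Plin4, Plin5, G0s2 and Slc2a4 it was highest in Dspp+/-. In Dspp-/- the ratios to WT of these genes were 1.16 (Plin4), 1.21 (Plin5), 1.19 (G0s2), 1.04 (Slc2a4) and 1.05 (Myh2). Other fat genes highest in Dspp+/- had ratios to WT in Dspp-/- such as 0.955 (Angptl4), 1.13 (Fitm2), 1.48 (Plin2), 1.68 (Gpam) and 1.90 (Dgat2). Larger ones were 1.93 (Lpl), 2.08 (Cd36) and 2.12 (Acsl1). The ratios thus did not fall into separate groups. Car3 is abundant in fat cells as well, and had 85.1, 38.8 and 105.4 FPKM, the order of Cfd. Myh2, Car3 and the fat genes whose ratios are given here were singled out after their values were seen. The part of muscle in the levels of Lpl, Plin4 and the uptake genes was not tested.

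The endothelial and macrophage lists, which cover cells that share Fabp4, Cd36 and Pparg with fat cells, had 0 of 10 genes past 2-fold in either mutant library. Their summed FPKM was 184.0, 206.9 and 195.0 for endothelium, led by Cdh5 at 48.9, 56.2 and 52.8 FPKM, and 203.3, 173.4 and 172.2 for macrophages, with Cd68, the highest of them by mean, at 50.4, 34.7 and 44.3 FPKM, although C1qb was higher in Dspp+/-, at 38.2 FPKM. Marrow stromal genes summed to 90.9, 126.0 and 114.8 FPKM, with Vcam1 of 6 genes at least 2-fold higher in Dspp+/- and Cxcl12, their most abundant gene, at 41.3, 67.5 and 55.6 FPKM. The erythroid and neutrophil marker genes differed far more. Of all genes compared, 4.88% were at least 2-fold higher than WT in Dspp+/- and 4.05% in Dspp-/-, and 2.86% and 1.37% were at least 2-fold lower. All 9 erythroid and all 9 neutrophil genes were at least 2-fold higher in both mutant libraries, with sums of 903.8, 3762.5 and 3641.1 FPKM and of 592.8, 2667.2 and 3490.6 FPKM, led by Hbb-bs, whose near-identical copy Hbb-bt may share its fragments, at 425.1, 1794 and 1886 FPKM and by S100a9 at 232.3, 915.6 and 1339 FPKM. At least 2-fold lower than in WT were 9 of 10 osteoblast and 5 of 7 chondrocyte genes in Dspp+/-, and 3 of 10 and 4 of 7 in Dspp-/-, where the 4 include Comp, which is not among the 5. Osteoblast genes summed to 15455, 4243.5 and 8490.2 FPKM, led by Col1a1 at 6675, 1719 and 3610 FPKM, and chondrocyte genes to 1626.3, 464.6 and 733.7 FPKM, with Col2a1, a cartilage collagen gene and the highest of them by mean, at 761.1, 94.2 and 308.2 FPKM, although Comp was higher in Dspp+/-, at 311.7 FPKM.

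Salivary gland and skin markers were low, with sums of 4.44, 9.03 and 12.5 FPKM over 7 genes, of which 2 reached a mean of 1 FPKM. The most abundant, the amylase gene Amy1, which is also active outside the gland, had 3.51, 8.09 and 7.66 FPKM. Bpifa2, a salivary gland gene named after its values were seen, had FPKM of 0.0738 (WT), 0.211 (Dspp+/-) and 3.71 (Dspp-/-), from 3, 10 and 166 fragments. Prol1 had 0, 0 and 13 fragments, with 0.502 FPKM in Dspp-/-, and Krt14 had 0, 1 and 0 fragments. Bpifa2 thus followed the order of Ucp1 and Cfd only in being highest in Dspp-/-. The part of such tissue in the levels of the 10 genes was not tested.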

How the data were processed

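Poly(A)-selected libraries of mandibular condyle RNA were sequenced as pairs of 150 bases, 1 library per genotype. The authors deposited 1 table of values whose header names no unit. The deposited values were read as FPKM, because their product with merged exon length (GENCODE M21, 26641 of 26970 genes matched) rises in equal steps. The depth of each library was fitted so that these steps are whole fragments. With it, fragments were whole, within 0.05, for 98.6% (WT), 98.7% (Dspp+/-) and 98.6% (Dspp-/-) of the genes under 100 fragments. These shares are not independent of that fit. Recovery was tested on simulated data. Per the labels, HISAT2 2.1.0 and StringTie 1.3.3b were among the tools and hg38, a human build, is the build listed in the submitters' processing notes. The table's own positions are mouse positions of a build not given in the sources used here, as start and end matched GENCODE M21 (GRCm38) for 578 of 26641 genes. FPKM does not adjust for composition, and mitochondrial genes held 9.60% (WT), 16.6% (Dspp+/-) and 16.2% (Dspp-/-) of the fragments.

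Levels were compared as ratios of FPKM with 95% Clopper-Pearson intervals, single levels were given with Poisson intervals, and 2-fold counts used log2(FPKM + 1) for genes averaging 1 FPKM or more, a scale that understates the change of low genes. Ratios of listed genes were computed where both libraries exceeded 3 fragments. The labels mention triplicates, but the table holds 1 value per genotype. Whether counting used strand is not given in the sources used here. The members and the gene lists were chosen with earlier results of these data known. Genes named are the 10 members, in each fat list the pair with the highest mean and the genes past 2-fold, the leading gene of each cell type list, the sex-linked genes and the 5 nearest to Adipoq. Other genes were named after their values were seen (Dpp4, Pi16, Ppargc1a, Angptl4, Pde3b, Adrb3, Tshr, Myh2, Myh4, Actn3, Car3, Vcam1, Comp, C1qb, Bpifa2, Krt14 and Prol1). So were Fitm2, Plin2, Gpam and Dgat2. Settings varied were the pseudocount (0.1, 5 and, added after seeing the data, none), the filter (none, or a mean of 5 FPKM), the fold threshold (1.5) and the scaling (median ratio, without mitochondrial genes or without hemoglobin, immunoglobulin and muscle genes), and Fabp4, Lpl and Pparg were left out. Dspp was not analysed here. Scripts ran in Python 3.11.15, with scipy 1.17.1 for intervals, pandas 2.3.3 and numpy 2.4.6 for tables and matplotlib 3.10.9 for plots.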

Additional observations from a re-analysis of the deposited data

Results flagged for a closer look

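Retn, Cfd, Plin1 and Cidec stood on opposite sides of WT in the mutant libraries. Their log2 ratios of FPKM + 1 to WT were -0.64, -1.37, -0.69 and -0.32 in Dspp+/-, and 0.87, 1.36, 1.22 and 1.74 in Dspp-/-, in the same order of genes. The difference was not tested, since each genotype is 1 library.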

How the results depend on the processing

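Under the 3 scalings, all 81 recomputed log2 ratios (9 genes, 3 comparisons) kept their direction, and the scalings left the counts of genes past 2-fold within 1.5 times. The intervals were not recomputed under the scalings. For Cidec in Dspp+/-, whose interval ends just under 1, the log2 ratio went from -0.32 to -0.25 with scaling without mitochondrial genes. Whether its interval would still exclude 1 was not computed. The counts of low genes moved with the pseudocount, which shrinks their ratios. With 0.1 in place of 1, and also with none, which was added after seeing the data, 3 genes were at least 2-fold lower in Dspp+/- than in WT. With 5, 2 genes were at least 2-fold higher in Dspp-/- than in WT (median log2 ratio 0.61), and 2 were higher in Dspp-/- than in Dspp+/- (median 0.61). A mean of at least 5 FPKM left 5 genes, with medians of 0.55 in Dspp+/- and 0.15 between the mutant libraries, and with 2 genes higher in Dspp-/- than in WT and 1 higher than in Dspp+/-. At 1.5-fold, 2 genes were higher and 3 lower in Dspp+/- than in WT, and 8 were higher in Dspp-/-. Without Fabp4, Lpl and Pparg, 0 genes were at least 2-fold higher in Dspp+/-, its median turned to -0.48, and the median between the mutant libraries became 1.70. No paired analysis was possible because each genotype has 1 library. Over all genes, the counts higher and lower were 636 and 373 in Dspp+/-, 527 and 179 in Dspp-/-, and 111 and 104 between the mutant libraries. In that order they became 971 and 605, 836 and 363, and 223 and 214 with a pseudocount of 0.1, and 185 and 156, 136 and 45, and 36 and 36 with 5. With none they became 1021 and 643, 887 and 399, and 242 and 237. They became 281 and 272, 228 and 110, and 57 and 52 at a mean of at least 5 FPKM, and 1501 and 1166, 1152 and 1070, and 441 and 563 at 1.5-fold. Without a filter the counts between the mutant libraries were 172 and 170. Depth limits Lep, with 14 to 26 fragments, and Retn in Dspp+/-, with 22.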
